A study of Mus musculus with 9 samples.

Results

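The 9 genes described here are the WNT ligand Wnt3 and 8 genes that limit, relay or report WNT signalling: Axin2, Notum, Nkd1, Sp5, Lgr5, Znrf3, Rnf43 and Dkk1. They were picked by name, as a ligand and reported feedback targets of the pathway, out of 33233 genes in the deposited count files. The choice was made with earlier results of these data known. Shares and medians of the 9 genes set beside those of all genes therefore describe the list and do not test it. All 9 were among the 16532 genes with enough counts to test, although Lgr5 and Dkk1 were low in wild type and reached that level mainly through the libraries of the other groups. RNA was sequenced from KH2 cells, a mouse embryonic stem cell line kept in medium with Lif on feeder cells that were taken off before extraction. The groups are cells of the wild-type line, cells labelled as a knockout of CBFA2T2 and cells labelled as a knockout of PRDM14, each with 3 biological replicates. CBFA2T2 is a co-repressor protein and PRDM14 a DNA-binding regulator of the pluripotent state and the germline, and the series asks what the loss of each does to embryonic stem cells. The labels do not say whether replicates were separate clones or separate cultures, so the p-values measure only the spread between these libraries, which may be technical.

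WNT proteins are secreted lipid-modified ligands that bind Frizzled receptors and LRP co-receptors and thereby stop a cytoplasmic destruction complex from degrading β-catenin. Stabilised β-catenin enters the nucleus and acts with TCF/LEF DNA-binding proteins on target genes, many of which encode inhibitors that feed back on the ligand, the receptor or the destruction complex. In mouse embryonic stem cells WNT activity is known to favour self-renewal, and in the embryo Wnt3 is needed for the primitive streak to form.

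RefSeq held promoter windows (GRCm38.p6) for 6 of the 9 genes, as 7 windows of which the 250 bases before the start were searched. Lgr5, Notum and Znrf3 had no entry. The letters searched, on both strands, were CTTTGAA and the variant CTTTGAT, then CTTTGTA and the variant CTTTGTT, which spell core forms of the TCF/LEF recognition sequence, and the matches found did not overlap. The windows of Sp5 (chr2:70474673-70474922, plus strand) and Dkk1 (chr19:30549497-30549746, minus strand) are shown because they were the windows with matches. The windows of Wnt3 (chr11:103773925-103774174, plus strand) and Axin2 (chr11:108920099-108920348, plus strand) are shown for contrast as windows without one. All run 5′ to 3′ along the gene's strand, and capitals mark the matches.
Sp5: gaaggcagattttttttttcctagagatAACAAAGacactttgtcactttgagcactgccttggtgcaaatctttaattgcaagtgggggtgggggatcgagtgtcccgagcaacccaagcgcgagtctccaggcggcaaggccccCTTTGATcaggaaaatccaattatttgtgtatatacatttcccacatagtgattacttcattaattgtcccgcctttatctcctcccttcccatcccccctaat
Dkk1: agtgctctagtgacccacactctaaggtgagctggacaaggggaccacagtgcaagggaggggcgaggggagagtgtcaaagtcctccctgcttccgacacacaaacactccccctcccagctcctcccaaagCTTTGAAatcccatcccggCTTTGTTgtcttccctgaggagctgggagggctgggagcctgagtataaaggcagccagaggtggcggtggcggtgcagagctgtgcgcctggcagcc
Wnt3: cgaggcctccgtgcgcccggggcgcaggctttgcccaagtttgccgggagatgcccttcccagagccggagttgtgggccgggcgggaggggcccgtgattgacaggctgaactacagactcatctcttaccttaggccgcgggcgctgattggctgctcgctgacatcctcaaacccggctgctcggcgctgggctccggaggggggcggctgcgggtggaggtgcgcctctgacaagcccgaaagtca
Axin2: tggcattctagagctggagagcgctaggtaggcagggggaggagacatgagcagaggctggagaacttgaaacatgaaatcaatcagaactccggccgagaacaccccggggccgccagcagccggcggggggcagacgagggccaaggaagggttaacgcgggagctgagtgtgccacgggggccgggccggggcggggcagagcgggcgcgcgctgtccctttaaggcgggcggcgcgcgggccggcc
The Sp5 window had CTTTGTT on the opposite strand at position -222 from the start and CTTTGAT on the gene's strand at -104. The Dkk1 window had CTTTGAA at -117 and CTTTGTT at -98, both on the gene's strand. Positions count from RefSeq's start, which for Dkk1 lies inside the gene as the files bound it, so that both matches are within the gene by the files' coordinates. RefSeq's starts of Wnt3, Nkd1 and Rnf43 also lie inside the bounds in the files. The windows of Wnt3, Axin2, Nkd1 and Rnf43 had 0 matches. Of 32851 RefSeq promoter windows searched the same way, 4874 (14.8%) held at least 1 match and 469 (1.43%) held 2 or more. A match describes the letters of the window and is not evidence that a factor binds there.

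Total counts per library ranged from 10309196 to 20129490, so that 1 count was worth 0.0479 to 0.0999 CPM (counts per 1000000 counts of the library after TMM scaling, edgeR's correction for library composition). Cbfa2t2 RNA was at 168 ± 8.69 CPM (SD, n = 3) in wild type and 76.3 ± 28.1 in the CBFA2T2 knockout. Prdm14 RNA went against its label, with 16.0 ± 2.12 CPM in wild type and 49.0 ± 12.5 CPM in the libraries labelled PRDM14 knockout, which are called PRDM14-labelled from here on. It was at 59.6 ± 6.94 CPM in the CBFA2T2 knockout, so the higher level was not particular to the PRDM14-labelled libraries. A gene's total RNA does not show whether its protein is lost, so every comparison rests on the labels. The summed level of 10 pluripotency markers was 5473 to 5527 CPM in wild type, 3080 to 3662 in the CBFA2T2 knockout and 3919 to 4620 in the PRDM14-labelled group. Of the 10 markers, 8 fell and 1 rose in the CBFA2T2 knockout, and 7 fell and 1 rose in the PRDM14-labelled group. Of all tested genes, 19.6% and 15.3% fell and 18.9% and 14.6% rose in these comparisons. The marker that rose was Nanog in both, by 0.47 and 0.75 on the log2 scale.

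Wnt3 and most of the feedback genes were higher in the CBFA2T2 knockout and in the PRDM14-labelled group than in wild type, Notum was lower in both, and Znrf3 overlapped wild type in both. A gene was called changed when its p from edgeR's quasi-likelihood test, adjusted by Benjamini-Hochberg over all 16532 genes, was under 0.05. In the CBFA2T2 knockout 7 of the 9 genes rose, 1 fell and 1 was not called, where 38.5% of all tested genes were called in either direction (18.9% higher and 19.6% lower). In the PRDM14-labelled group 6 rose, 1 fell and 2 were not called, where 29.9% of all tested genes were called (14.6% higher and 15.3% lower). Lgr5 and Dkk1 are among the 7 genes that rose, and Dkk1 is among the 6. Both were low in wild type and were tested mainly through the other groups, so a fall could hardly be called for them. They also enter the medians and the overlap counts that follow. The median log2 fold change of the 9 genes was 2.51 in the CBFA2T2 knockout, against 0.01 over all tested genes, and 2.29 in the PRDM14-labelled group, against 0.02. The libraries did not overlap those of wild type for 8 genes in the CBFA2T2 knockout and 7 in the PRDM14-labelled group, while 53.7% and 45.1% of all tested genes had no overlap. Both comparisons use the same 3 wild-type libraries, so the comparisons are not independent of each other. In these bulk samples, more or fewer cells that make an RNA and more or less of it per cell cannot be told apart.

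**Figure D1:**
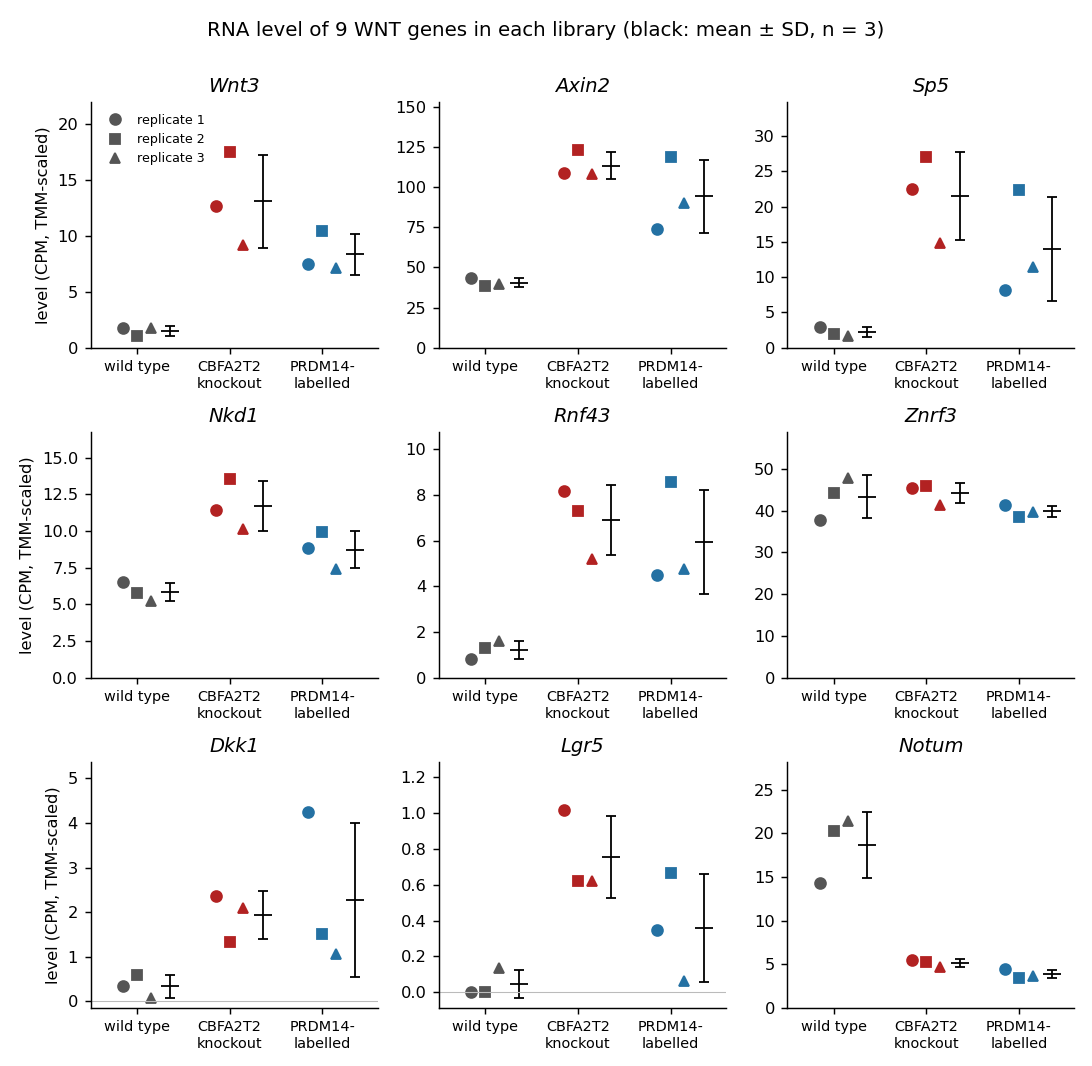
Level of each of the 9 genes in CPM (vertical axis, linear, a separate scale per gene) in the 9 libraries. Points are libraries and bars are the mean ± SD of 3 replicates per group. The points of the CBFA2T2 knockout and the PRDM14-labelled group lie above wild type for Wnt3, Axin2, Sp5, Nkd1, Rnf43 and Dkk1 and below it for Notum, and the groups overlap for Znrf3.

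Wnt3 (ENSMUSG00000000125, chromosome 11, 103774150 to 103817957 on GRCm38), the ligand of the set, was at 1.77, 0.999 and 1.73 CPM in wild-type replicates 1, 2 and 3. The CBFA2T2 knockout had 12.7, 17.5 and 9.16 CPM, and the PRDM14-labelled group had 7.46, 10.4 and 7.13 CPM. All 6 libraries of these groups were above every wild-type library. Replicate 2 was the highest in each of these groups and the lowest in wild type. Against wild type, Wnt3 rose by a log2 fold change of 3.09 ± 0.29 (SE) in the CBFA2T2 knockout, an 8.49-fold difference with an adjusted p of 5.02e-06 by edgeR. Its rise in the PRDM14-labelled group was 2.43 ± 0.30, or 5.38-fold (adjusted p = 5.72e-05, edgeR). The pattern of Wnt3 was compared with 10454 other genes with a mean of at least 5 CPM, without those whose symbol is a gene-model or clone name. Closest to Wnt3 over the 9 libraries were Eps8l2, Frmd4b, Dusp8, Spsb1 and Mfsd7c. Their root mean square difference from Wnt3, in gene-centred log2(CPM + 0.5), was 0.229, 0.256, 0.279, 0.288 and 0.291 in that order, where Wnt3 itself varied around its own mean by 1.22.

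Sp5 (ENSMUSG00000075304, chromosome 2, 70474923 to 70477729) encodes a zinc-finger transcription factor that is a direct β-catenin target. Its level was 2.97, 1.90 and 1.66 CPM in wild type, 22.5, 27.1 and 14.8 CPM in the CBFA2T2 knockout and 8.16, 22.3 and 11.4 CPM in the PRDM14-labelled group. None of these 6 libraries reached down to wild type, and the PRDM14-labelled group was spread widely, with its replicate 2 inside the range of the CBFA2T2 knockout. The log2 fold change was 3.27 ± 0.43 in the CBFA2T2 knockout (9.67-fold, adjusted p = 0.000351 by edgeR) and 2.65 ± 0.44 in the PRDM14-labelled group (6.26-fold, adjusted p = 0.00178 by edgeR).

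Axin2 (ENSMUSG00000000142, chromosome 11, 108920349 to 108950783) encodes a scaffold of the destruction complex and is a widely used reporter of WNT activity. It was at 43.4, 38.2 and 39.6 CPM in wild type, 109, 123 and 108 CPM in the CBFA2T2 knockout and 73.7, 119 and 90.0 CPM in the PRDM14-labelled group. Wild type was narrow and below the 6 other libraries. The difference was smaller in fold than for Wnt3 or Sp5, at a log2 fold change of 1.49 ± 0.15 in the CBFA2T2 knockout (2.80-fold, adjusted p = 1.48e-05 by edgeR). It was 1.22 ± 0.15 in the PRDM14-labelled group (2.33-fold, adjusted p = 9.4e-05 by edgeR). An antisense gene model over Axin2 (Gm11670) had 0 counts in all 9 libraries.

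Nkd1 (ENSMUSG00000031661, chromosome 8, 88521344 to 88594887) encodes a cytoplasmic inhibitor that binds Dishevelled, the adaptor between receptor and destruction complex. Its level was 6.51, 5.80 and 5.25 CPM in wild type, 11.4, 13.5 and 10.2 CPM in the CBFA2T2 knockout and 8.86, 9.90 and 7.44 CPM in the PRDM14-labelled group. The 3 groups did not overlap, and the PRDM14-labelled libraries lay between the other groups. Nkd1 rose by a log2 fold change of 1.00 ± 0.18 in the CBFA2T2 knockout (adjusted p = 0.000821, edgeR). It rose by 0.57 ± 0.19 in the PRDM14-labelled group (adjusted p = 0.0313, edgeR). That call was lost when any of 4 libraries was left out, with adjusted p of 0.0547 without PRDM14-labelled replicate 1, 0.110 without its replicate 2, 0.0813 without wild-type replicate 2 and 0.116 without wild-type replicate 3.

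Notum (ENSMUSG00000042988, chromosome 11, 120653788 to 120661175) encodes a secreted enzyme that removes the lipid from WNT proteins and so inactivates them. Alone among the 9 genes it was called lower, and this in both comparisons with wild type. Wild type had 14.3, 20.3 and 21.4 CPM, the CBFA2T2 knockout 5.48, 5.23 and 4.66 CPM and the PRDM14-labelled group 4.43, 3.46 and 3.69 CPM. The lowest wild-type library was above the highest of the other 6 libraries. Notum fell by 1.86 ± 0.19 on the log2 scale in the CBFA2T2 knockout, 3.62-fold lower than wild type (adjusted p = 9.86e-06, edgeR). It fell by 2.27 ± 0.20, or 4.81-fold, in the PRDM14-labelled group (adjusted p = 4.4e-06, edgeR). The antisense gene Notumos overlaps Notum exons on the other strand and was at 0 to 0.571 CPM, highest in wild-type replicate 1. The strand setting of the counting is not given in the sources used here, so reads of this pair may not be fully separated.

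Dkk1 (ENSMUSG00000024868, chromosome 19, 30545863 to 30549665) encodes a secreted antagonist of the LRP co-receptors. It was rare in wild type, with 6, 6 and 1 counts, or 0.343, 0.600 and 0.0691 CPM. The CBFA2T2 knockout had 2.37, 1.34 and 2.10 CPM from 42, 28 and 27 counts. The PRDM14-labelled group had 4.25, 1.52 and 1.06 CPM from 73, 25 and 17 counts, and its replicate 1 was the highest of all libraries, while all 6 libraries of these groups exceeded wild type. The log2 fold change was 2.58 ± 0.67 in the CBFA2T2 knockout (adjusted p = 0.00856, edgeR) and 2.83 ± 0.66 in the PRDM14-labelled group (adjusted p = 0.00633, edgeR). Without PRDM14-labelled replicate 1 the latter was 2.0 and still called. That library also had the highest summed level of 8 primitive endoderm markers, 137 CPM against 55.0 and 49.7 in replicates 2 and 3 of its group and 65.6 to 75.5 in wild type. Lama1 had the most counts of the list there, 1567 against 589 and 416, and every marker of the list was highest there within the group. Sox7 had 24 counts there against 46, 17 and 38 in wild type. Of the 8 markers, 1 was called higher and 1 lower in the PRDM14-labelled group, where 14.6% of all tested genes were called higher and 15.3% lower. Replicate 1 of the CBFA2T2 knockout, the highest of its group for Dkk1, also had its highest primitive endoderm sum, 85.6 CPM against 50.7 and 48.4. Gata4 (136 counts against 161 in replicate 2) and Dab2 (297 against 363) were not highest there. The part of these marker levels in the Dkk1 values was not tested.

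Lgr5 (ENSMUSG00000020140, chromosome 10, 115450311 to 115587780), a receptor for R-spondins that marks WNT-dependent stem cells of the intestine, was near the limit of detection. It had 0, 0 and 2 counts in wild type, 18, 13 and 8 counts in the CBFA2T2 knockout and 6, 11 and 1 counts in the PRDM14-labelled group. In CPM the CBFA2T2 knockout had 1.02, 0.623 and 0.621 and the PRDM14-labelled group 0.350, 0.668 and 0.0625, against 0.138 in the wild-type library with counts. A count of 0 allows up to 3 counts, or 0.171 and 0.300 CPM in wild-type replicates 1 and 2. The CBFA2T2 knockout did not overlap wild type, while replicate 3 of the PRDM14-labelled group lay within its range. With the counts of each group pooled, the level was 15.9 times wild type in the CBFA2T2 knockout (95% interval 4.12 to 136, counting error only). It was 7.62 times wild type in the PRDM14-labelled group (1.82 to 67.7). Lgr5 was called in the CBFA2T2 knockout (log2 fold change 3.78 ± 1.00, adjusted p = 0.0088 by edgeR). That fitted value was 3.11 without wild-type replicate 1 and 6.62 without wild-type replicate 3, and the call held in both cases. Lgr5 was not called in the PRDM14-labelled group (2.73 ± 1.10, adjusted p = 0.0775 by edgeR), and its adjusted p was 0.0321 without that group's replicate 3. The fitted value ran from 1.97 without PRDM14-labelled replicate 2 to 5.57 without wild-type replicate 3.

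Znrf3 and Rnf43 are paralogous membrane E3 ubiquitin ligases that remove Frizzled receptors from the cell surface, and they gave different values in these cells. Rnf43 (ENSMUSG00000034177, chromosome 11, 87662722 to 87735539) was at 0.800, 1.30 and 1.59 CPM in wild type, 8.19, 7.29 and 5.20 CPM in the CBFA2T2 knockout and 4.49, 8.56 and 4.75 CPM in the PRDM14-labelled group. All 6 libraries of these groups were above wild type. Rnf43 rose by a log2 fold change of 2.51 ± 0.34 in the CBFA2T2 knockout (5.70-fold, adjusted p = 8.56e-05 by edgeR) and by 2.29 ± 0.35 in the PRDM14-labelled group (4.88-fold, adjusted p = 0.00028 by edgeR). Znrf3 (ENSMUSG00000041961, chromosome 11, 5276324 to 5444847) was at 37.8, 44.2 and 47.9 CPM in wild type, 45.4, 45.9 and 41.4 CPM in the CBFA2T2 knockout and 41.3, 38.6 and 39.6 CPM in the PRDM14-labelled group. Both groups overlapped wild type. The log2 fold change of Znrf3 was 0.03 ± 0.10 in the CBFA2T2 knockout (95% interval -0.17 to 0.24, adjusted p = 0.819 by edgeR). For the PRDM14-labelled group it was -0.12 ± 0.10 (interval -0.32 to 0.08, adjusted p = 0.421 by edgeR). Both intervals end below the fold change of Rnf43. Per kilobase of exon, the Rnf43 level was 3.36% ± 0.737 (SD, n = 3) of the Znrf3 level in wild type, 18.7% ± 3.34 in the CBFA2T2 knockout and 18.1% ± 7.52 in the PRDM14-labelled group.

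**Figure D2:**
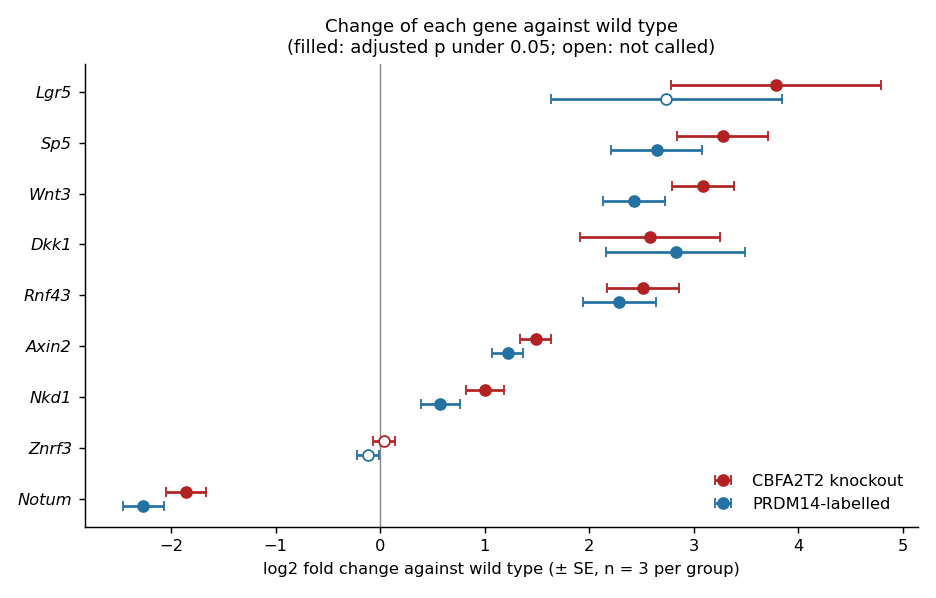
Log2 fold change against wild type (horizontal axis) of each of the 9 genes (rows) in the CBFA2T2 knockout (red) and the PRDM14-labelled group (blue). Points are edgeR estimates from 3 libraries per group, bars are ± SE, and filled points have an adjusted p under 0.05. Notum is at -1.86 and -2.27, Znrf3 is near 0, and Lgr5 has the widest bars.

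Set directly against each other, the CBFA2T2 knockout and the PRDM14-labelled group did not differ in any of the 9 genes at an adjusted p under 0.05 by edgeR, and 0.853% of all tested genes were called in that comparison (0.339% higher and 0.514% lower in the CBFA2T2 knockout). DESeq2 and limma-voom also called 0 of the 9, and 2 genes, Wnt3 and Nkd1, had an unadjusted p under 0.05 by edgeR. Of the 9 estimates, 8 lay above 0, that is, higher in the CBFA2T2 knockout, with a median log2 difference of 0.41, against -0.00347 over all tested genes. Wnt3 was 0.66 ± 0.25 higher on the log2 scale (adjusted p = 0.211), Sp5 0.63 ± 0.36 (0.458), Nkd1 0.43 ± 0.18 (0.265) and Notum 0.41 ± 0.20 (0.366), all adjusted p by edgeR. For Axin2, Rnf43 and Znrf3 the differences were 0.27 ± 0.14, 0.22 ± 0.29 and 0.15 ± 0.10, and for Dkk1 -0.25 ± 0.52, with adjusted p of 0.403, 0.777, 0.525 and 0.874 by edgeR. The Dkk1 difference turned to 0.57 without PRDM14-labelled replicate 1. Lgr5, from few counts, gave the largest estimate of the 9, at 1.05 ± 0.69 (adjusted p = 0.515, edgeR). The libraries of these groups did not overlap for Notum, Nkd1 and Znrf3, 3 of the 9, while 17.8% of all tested genes had no overlap. Replicate 2 of the PRDM14-labelled group bore on this comparison: without it, Axin2 (0.47, adjusted p = 0.0311) and Sp5 (1.14, adjusted p = 0.0446) were called higher in the CBFA2T2 knockout by edgeR, and 597 genes were called in all in place of 141.

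The same library stood out in other ways. Within its group, PRDM14-labelled replicate 2 was the highest for Wnt3, Sp5, Axin2, Nkd1, Rnf43 and Lgr5. It also had the highest summed level of 12 fibroblast markers, 2627 CPM against 1450 and 1788 in replicates 1 and 3. Its 9 trophectoderm markers summed to 473 CPM against 237 and 217, of which the keratins Krt8 and Krt18 made up 218 and 142 CPM, while Gata3 (2.37 CPM against 3.85 and 3.75), Tfap2c (92.4 against 109 and 90.7) and Esx1 (8.08 against 8.74 and 8.25) were not highest there. Cdx2 (13 counts against 20 and 28), Krt7 (153 against 168 and 99) and Hand1 (10 against 11 and 1) were not highest there either. Of the fibroblast list, Fn1 had the most counts in every library, with 22530 in this library against 15727 and 17393. Col1a1 was at 578 CPM in this library against 245 and 325, and Dcn at 1.88 against 0.932 and 2.31. Its 10 primitive streak markers summed to 21.7 CPM against 12.7 and 14.4. Fgf8 (140 counts against 16 and 57), T (49 against 22 and 22), Gsc (22 against 4 and 16) and Evx1 (13 against 2 and 2) were highest there. Eomes (115 counts against 153 and 97), Mixl1 (8 against 11 and 27) and Tbx6 (9 against 8 and 10) were not. In the CBFA2T2 knockout, replicate 2 was likewise the highest for Wnt3, Sp5, Axin2 and Nkd1, with fibroblast markers at 2574 CPM against 1689 and 1519 and trophectoderm markers at 1430 CPM against 889 and 597. Krt8 and Krt18 made up 813 and 469 CPM of that sum, while Gata3 (5.13 CPM against 5.37 and 5.20) and Tfap2c (94.8 against 93.5 and 116) were not highest there and Krt7 (32.2 against 27.7 and 21.7) and Esx1 (12.2 against 10.2 and 11.3) were. Cdx2 was not highest in that library, with 34 counts against 67 and 25. Across groups, the fibroblast sum was 1232 to 1291 CPM in wild type. Of 11 tested markers, 5 were called higher in the CBFA2T2 knockout, 4 in the PRDM14-labelled group and 0 lower in either. Of all tested genes, 18.9% and 14.6% were called higher in these comparisons. Fn1, the largest part of that sum in wild type, did not move 1 way in CPM. It was below every wild-type library in CBFA2T2 knockout replicates 1 and 3 and PRDM14-labelled replicate 1. In the other libraries of these groups it was above every wild-type library. Dcn of that list had 40, 11 and 29 counts in wild type. It had 20, 45 and 19 counts in the CBFA2T2 knockout and 16, 31 and 37 in the PRDM14-labelled group. The trophectoderm sum was 101 to 120 CPM in wild type, with 7 and 5 of 8 tested markers called higher, beside the same 18.9% and 14.6%. Lum of the fibroblast list and Elf5 of the trophectoderm list were near 0, and Msgn1 of the primitive streak list was at 0 throughout. The part of these cell types in the levels of the 9 genes was not tested.

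**Figure D3:**
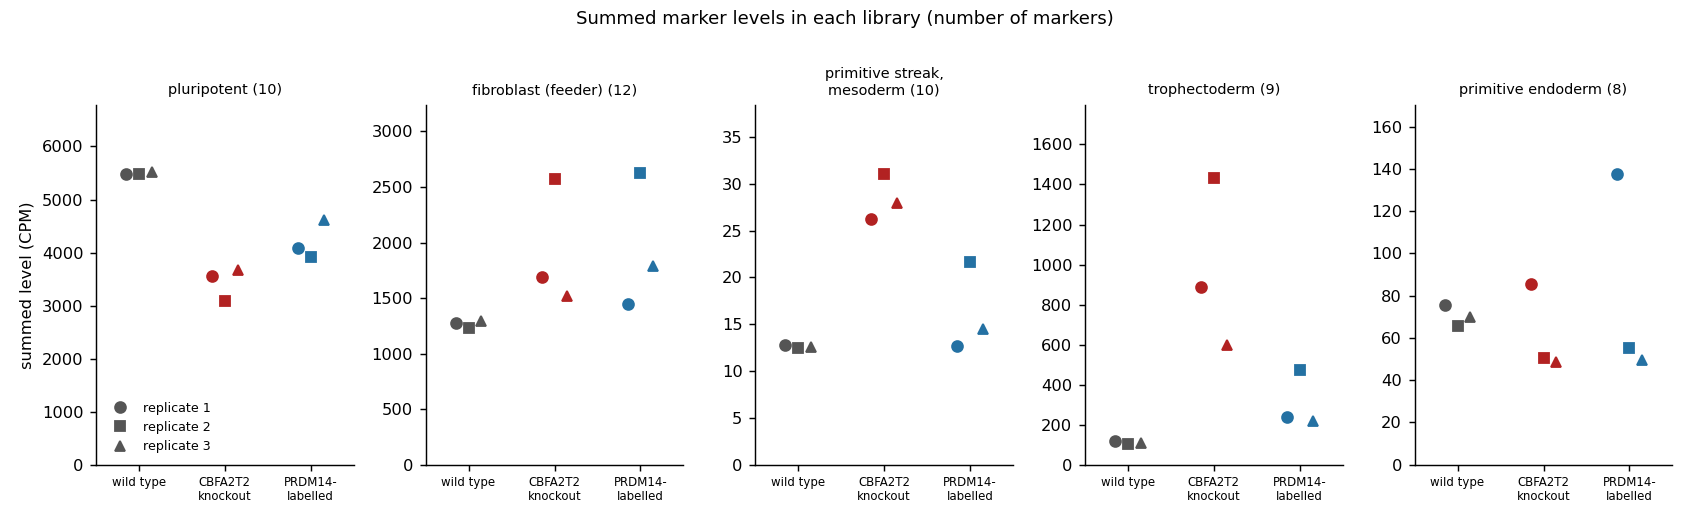
Summed CPM of 5 lists of cell type markers in the 9 libraries (points, 1 per library, by group; the vertical axes are linear with a separate scale per list). The fibroblast and trophectoderm sums are highest in replicate 2 of the CBFA2T2 knockout and of the PRDM14-labelled group, and the pluripotency sum is highest in wild type.

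Levels of different genes were compared per kilobase of exon. In wild type the order of mean CPM per kilobase was Notum (7.75), Axin2 (7.34), Znrf3 (5.48), Nkd1 (1.28), Sp5 (1.04), Wnt3 (0.487), Rnf43 (0.187), Dkk1 (0.139) and Lgr5 (0.00449). In the CBFA2T2 knockout Axin2 led at 20.6 CPM per kilobase, followed by Sp5 (10.2), Znrf3 (5.60), Wnt3 (4.26), Nkd1 (2.57) and Notum (2.13), with Rnf43 (1.05), Dkk1 (0.798) and Lgr5 (0.0734) last. In the PRDM14-labelled group Axin2 (17.1), Sp5 (6.65) and Znrf3 (5.05) again came first in this order, ahead of Wnt3 (2.71), Nkd1 (1.92), Notum (1.60), Dkk1 (0.939), Rnf43 (0.905) and Lgr5 (0.0351). Notum thus went from the head of the order in wild type to the sixth place in both other groups, while Sp5 went from the fifth place to the second. Neighbours in the order whose libraries overlapped were Notum and Axin2, Nkd1 and Sp5, and Rnf43 and Dkk1 in wild type. In the CBFA2T2 knockout they were Znrf3 and Wnt3, Nkd1 and Notum, and Rnf43 and Dkk1. In the PRDM14-labelled group they were Sp5 and Znrf3, Nkd1 and Notum, Notum and Dkk1, and Dkk1 and Rnf43.

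Of 100 other pathway genes listed by role, 88 were tested, and in the CBFA2T2 knockout 32 rose, 13 fell and 43 were not called, a share called of 51.1% beside 38.5% of all genes. In the PRDM14-labelled group 16 rose, 15 fell and 57 were not called, 35.2% beside 29.9%, and 20 in all were called without wild-type replicate 3. The median log2 fold change of the 88 genes was 0.39 and 0.16 in the CBFA2T2 knockout and the PRDM14-labelled group, against medians of 2.51 and 2.29 for the 9 genes.

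Among 12 other WNT ligands tested of 18 listed, 6 rose in the CBFA2T2 knockout, 3 rose in the PRDM14-labelled group and 0 fell in either. Of all tested genes, 18.9% and 14.6% rose in these comparisons. Wnt6, Wnt10b and Wnt16 were low in wild type and were tested mainly through the other groups, so a fall could hardly be called for them. With a minimum mean of 5 CPM, 3 ligands were tested. Of these, 1 rose in the CBFA2T2 knockout and 0 were called in the PRDM14-labelled group. The PRDM14-labelled count of 3 was 1 by limma-voom, with the compared groups alone or without wild-type replicate 2 or 3. It was 5 without PRDM14-labelled replicate 1. Wnt6 rose by a log2 fold change of 3.51 ± 0.52 in the CBFA2T2 knockout, and Wnt8a by 2.08 ± 0.30 (adjusted p of 0.000163 and 0.000135 by edgeR), and the Wnt6 value was 4.24 without wild-type replicate 1. Wnt10b had 2 counts over the 3 wild-type libraries and 139 in the CBFA2T2 knockout, a pooled ratio of 56.7 (95% interval 15.4 to 473, counting error only). The ligand-processing genes of the secretion list split in both comparisons. Porcn, the acyltransferase that attaches the lipid which Notum removes, fell by 2.0 ± 0.20 in the CBFA2T2 knockout and by 1.53 ± 0.19 in the PRDM14-labelled group (adjusted p of 1.08e-05 and 9.88e-05 by edgeR). Wls, the carrier that brings WNT proteins to the cell surface, rose by 1.89 ± 0.30 and 1.27 ± 0.31 (adjusted p of 0.00111 and 0.0124), and the latter call was lost without wild-type replicate 3.

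Of 15 receptors and co-receptors, 6 rose and 4 fell in the CBFA2T2 knockout, and 2 rose and 3 fell in the PRDM14-labelled group. The latter 5 calls became 8 without PRDM14-labelled replicate 1 and 3 without its replicate 2 or 3 or without wild-type replicate 2 or 3. Of all tested genes, 38.5% and 29.9% were called in these comparisons, which are the shares to set beside each list here. The Frizzled receptors, which Rnf43 and Znrf3 act on, went both ways. Fzd7 fell by 1.22 ± 0.10 and 1.05 ± 0.10 on the log2 scale in the CBFA2T2 knockout and the PRDM14-labelled group, and Fzd10 rose by 1.85 ± 0.24 and 1.41 ± 0.24, with edgeR adjusted p of at most 0.000661. Lgr4, an R-spondin receptor related to Lgr5, was abundant at 148 ± 2.35 CPM in wild type and fell by 0.32 ± 0.08 and 0.36 ± 0.08 (adjusted p of 0.00699 and 0.0045). Of 5 R-spondin and R-spondin receptor genes tested beside Lgr5, 1 rose and 1 fell in the CBFA2T2 knockout, and 0 rose and 1 fell in the PRDM14-labelled group. The gene that rose was Rspo3, an R-spondin, and its call was lost without replicate 1 or 2 of the CBFA2T2 knockout or replicate 2 or 3 of wild type. Among 11 further secreted and membrane inhibitors tested of 16 listed, 4 rose and 1 fell in the CBFA2T2 knockout and 2 rose and 1 fell in the PRDM14-labelled group. Without wild-type replicate 2 the calls were 3 and 1. Wif1, a secreted WNT-binding inhibitor, had 3 counts over the wild-type libraries, 35 in the CBFA2T2 knockout and 50 in the PRDM14-labelled group, pooled ratios of 9.53 (95% interval 3.00 to 48.4, counting error only) and 14.1 (4.56 to 70.7). It was tested mainly through the other groups, so a fall could hardly be called for it.

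In the destruction complex and Dishevelled list, to which Axin2 belongs by function, 3 of 14 other genes rose and 1 fell in the CBFA2T2 knockout, and 2 rose and 3 fell in the PRDM14-labelled group. The latter 5 calls became 3 without wild-type replicate 3. For this list and those below, the shares of all tested genes called were 38.5% and 29.9%. Apc2, a relative of the complex subunit Apc, rose by 1.32 ± 0.26 and 1.15 ± 0.26 in the CBFA2T2 knockout and the PRDM14-labelled group (adjusted p of 0.00131 and 0.00469 by edgeR). Of 14 genes for β-catenin and its nuclear partners, 2 rose and 3 fell in the CBFA2T2 knockout, and 1 rose and 4 fell in the PRDM14-labelled group, where 3 calls were left without wild-type replicate 1 or 3. Lef1, a TCF/LEF factor and itself a reported target, was at 78.4, 86.8 and 102 CPM in wild type, 7.46, 6.90 and 7.61 CPM in the CBFA2T2 knockout and 8.57, 8.50 and 6.57 CPM in the PRDM14-labelled group. It thus fell, by 3.61 ± 0.14 and 3.50 ± 0.14 on the log2 scale (adjusted p of 6.26e-09 and 8.56e-09 by edgeR), in the libraries in which Axin2 and Sp5 rose. In the same list Bcl9l rose by 1.48 ± 0.13 and 0.79 ± 0.13. Tle4 fell by 1.97 ± 0.17 and 1.66 ± 0.17, and both genes had edgeR adjusted p of at most 0.000644. Of 15 other reported WNT targets, 9 rose and 2 fell in the CBFA2T2 knockout and 5 rose and 2 fell in the PRDM14-labelled group. Those that fell in both were Myc, a growth regulator, by 1.59 ± 0.19 and 1.73 ± 0.19, and Ccnd1, which encodes cyclin D1, by 1.07 ± 0.09 and 0.97 ± 0.09 (adjusted p of at most 7.12e-05 by edgeR). T, the mesoderm factor Brachyury, rose by 3.82 ± 0.53 in the CBFA2T2 knockout (adjusted p = 0.000124) from 0.413 ± 0.363 CPM in wild type. At that level a fall could hardly be called for T, which was tested mainly through the other groups.

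**Figure D4:**
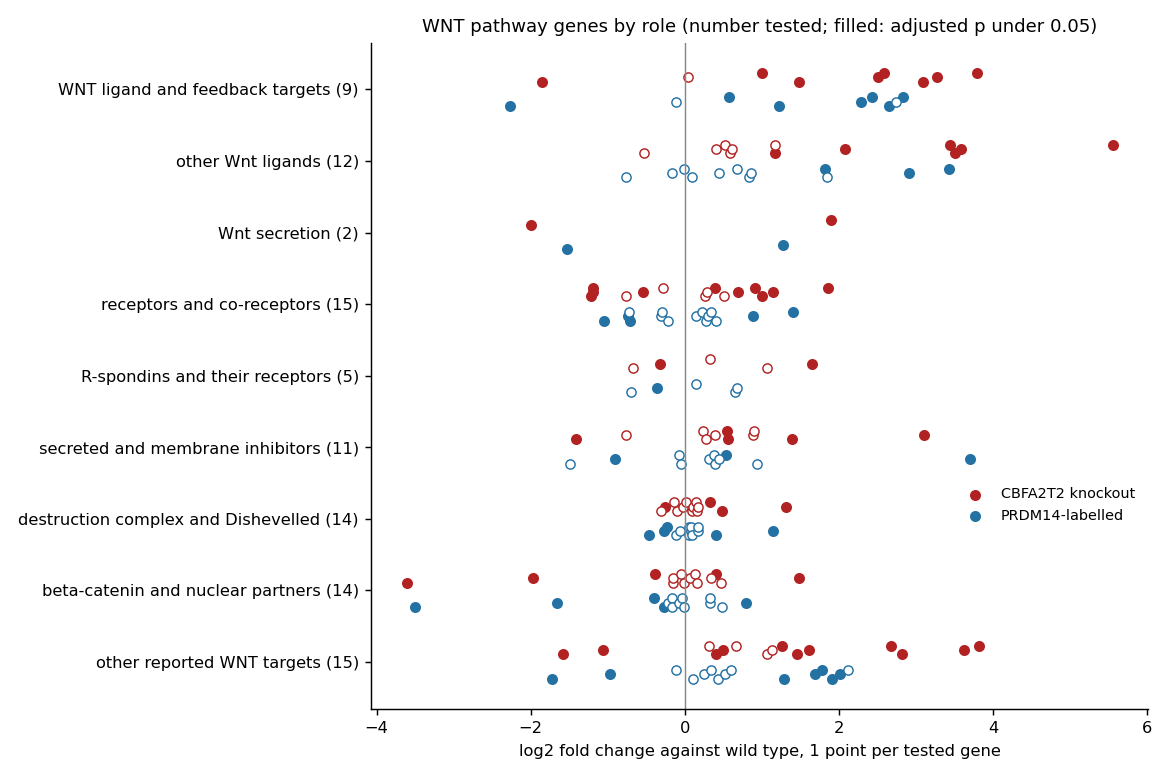
Log2 fold change against wild type (horizontal axis) of the 9 genes and of 88 other tested WNT pathway genes, by role (rows, with the number tested). Each point is a gene in the CBFA2T2 knockout (red) or the PRDM14-labelled group (blue), filled where the adjusted p is under 0.05. The 9 genes lie mostly to the right, and the nuclear partners include Lef1 at -3.61 and -3.50.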

How the data were processed

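Polyadenylated RNA of 9 libraries, 3 per group, was sequenced as strand-specific dUTP libraries, per the labels' protocols. The authors deposited raw counts per Ensembl gene without normalization. Bowtie, with no version, and the mm9 genome are named in the submitters' processing notes, but the files carry GRCm38 coordinates: 32860 identifiers were matched to GENCODE M21, every one with its chromosome, and for 25661 (78.1%) both ends were identical. Which program counted the reads, and with what strand setting, is not given in the sources used here. Date-like symbols of 27 genes were restored from their identifiers.

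The labels give each sample's group and replicate number. In edgeR 4.0.16 (R 4.3.3), filterByExpr kept 16532 genes, TMM factors were 0.962 to 1.04, and 1 quasi-likelihood model covered all 9 libraries, with group as its only term. The CBFA2T2 knockout and the PRDM14-labelled group were each compared with wild type and with each other, two-sided, with p adjusted by Benjamini-Hochberg over all tested genes and a threshold of 0.05. The standard error (SE) of a log2 fold change is its size over the root of the F statistic. CPM use the scaled size of the kept genes. Levels per kilobase use the union of GENCODE M21 exons. Reads carried no molecular identifiers, so intervals and limits from counts cover counting error only, and 3 counts are 0.144 to 0.300 CPM.

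The alternatives were other library scalings, filters and tests (DESeq2 1.42.0, limma 3.58.1), the compared groups alone, a replicate block and leaving out each library. Other pathway genes were named by the lowest adjusted p within each role, up to 3 per comparison, and not all of these are described. Those left out include genes whose calls held with any 1 library left out, such as Gsk3b and Cdx1. The same alternatives were applied to the pathway lists after seeing the data. The genes, lists and tests were chosen with earlier results of these data known.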

Additional observations from a re-analysis of the deposited data

How the results depend on the processing

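Of 476 alternative values for the 9 genes in the 3 comparisons, 467 kept their direction and their side of the threshold, 4 were no longer called, 3 became called and 2 changed sign. The sign changes were in estimates that were not called: Znrf3 in the CBFA2T2 knockout against wild type was -0.059 without wild-type replicate 1 (range with 1 library left out, -0.059 to 0.13), and Dkk1 in the CBFA2T2 knockout against the PRDM14-labelled group was 0.57 without PRDM14-labelled replicate 1 (range -0.58 to 0.57). Of the 9 genes, 8 were called in the CBFA2T2 knockout with any 1 library left out, and 6 to 8 in the PRDM14-labelled group. With a minimum mean of 5 CPM, only 6 of the 9 could be tested and 5 were called in the CBFA2T2 knockout. Between the CBFA2T2 knockout and the PRDM14-labelled group 0 to 2 of the 9 were called with 1 library left out.

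Over all genes, leaving out 1 library gave 4800 to 6829 calls in the CBFA2T2 knockout and 3386 to 4970 in the PRDM14-labelled group. Scaling by total count alone moved the split of calls in the CBFA2T2 knockout from 3127 higher and 3240 lower to 3885 higher and 2462 lower. The 141 calls between these groups became 328 with no filter on low counts, 602 with DESeq2's Wald test, 24 with the compared groups alone and 24 to 597 with 1 library left out, and the cause was not tested. With the replicate number as a block they became 392. The deviations of same-numbered libraries correlated by -0.00821 to 0.296 and exceeded 0.1 in 3 of 9 pairs, so the numbers were not taken to pair the libraries. As a hint from the data, every library of the CBFA2T2 knockout and the PRDM14-labelled group correlated best with its own number in the other group (0.0607 to 0.296, against -0.209 to 0.0574 for different numbers). Against wild type this held for replicates 1 and 3 of both groups (0.0626 to 0.101) and not for replicate 2. The block changed no call among the 9 genes, and it ended that of Rspo3 in the CBFA2T2 knockout (1.64, adjusted p = 0.0509 by edgeR). Depth limits Lgr5 and Dkk1 most.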
